A study of Mus musculus with 6 samples.

Results

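The 6 actin isoform genes of the mouse were described in the hearts of sham-operated mice. They were chosen by name, as the cardiac isoform Actc1, the skeletal isoform Acta1, the smooth muscle isoforms Acta2 and Actg2, and the cytoplasmic isoforms Actb and Actg1. All 6 were found among the 17447 gene symbols of the count table. Heart RNA of wild-type mice had been sequenced in 6 libraries, 3 from mice with chronic kidney disease (CKD) after a subtotal nephrectomy in 2 operations, and 3 from sham-operated mice whose kidneys were exposed and left whole. The labels used here give neither strain, age nor the chamber of the heart that was taken. They also do not say that the 3 libraries of a group came from separate mice, so the spread given here is between libraries, each referred to as a heart, and may be partly technical.

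Actin is the protein of the thin filament of the sarcomere, along which myosin pulls, and also of the filaments that shape every cell. In the adult rodent heart Actc1 is the main sarcomeric isoform, whereas Acta1 is known to be abundant in the newborn heart and to return in hypertrophy. Acta2 marks vascular smooth muscle and activated fibroblasts, Actg2 marks smooth muscle of gut and bladder, and Actb and Actg1 are made in nearly all cells. Many actin genes are switched on by serum response factor (SRF), which binds a short sequence known as the CArG box.

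The row labels of the CKD columns were checked first. Over the whole table, Spearman's rho was 0.984 to 0.987 between CKD columns, -0.0586 to -0.0528 between a CKD and a sham column, and 0.982 to 0.985 between sham columns. The row labelled Actc1 held 22584, 22899 and 26672 counts in the CKD columns, against 158789, 169286 and 173880 in the sham columns. The row labelled Actg2, an isoform of gut muscle, held 2435, 2395 and 2793 counts in the CKD columns, against 14, 3 and 52 in the sham columns. The CKD labels did not match their values, so the CKD columns were used for nothing else, and no test between groups was made. The sham columns held 10480788, 10474487 and 12669724 counts. Their labels fitted heart tissue, with all 10 ventricular cardiomyocyte markers above 1000 CPM (counts scaled to a column total of 1000000) on average.

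The isoforms resemble each other in sequence, which bears on how a read is assigned to one of them. In the principal transcripts of GENCODE M21 (build GRCm38), all 6 genes lie on the minus strand, Actc1 on chromosome 2, Acta1 on 8, Acta2 on 19, Actg2 on 6, Actb on 5 and Actg1 on 11. Their coding sequences hold 377 codons in Actc1, Acta1 and Acta2, 376 in Actg2, and 375 in Actb and Actg1. Aligned from the stop codon without gaps over 1125 bases, the 15 pairs shared 81.9% to 88.6% of their bases. The most alike were the cytoplasmic pair Actb and Actg1 at 88.6%, followed by the sarcomeric pair Actc1 and Acta1 at 86.1%. The stretch of 60 coding bases in which the 6 differ most lies near the start of the coding sequence. It is shown because the isoforms are most distinct there, and capitals mark bases that differ from Actc1 at the same place.
Actc1: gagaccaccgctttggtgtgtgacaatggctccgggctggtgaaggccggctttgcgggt
Acta1: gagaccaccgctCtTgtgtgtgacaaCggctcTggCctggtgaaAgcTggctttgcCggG
Acta2: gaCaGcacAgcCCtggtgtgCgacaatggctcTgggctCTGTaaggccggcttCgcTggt
Actg2: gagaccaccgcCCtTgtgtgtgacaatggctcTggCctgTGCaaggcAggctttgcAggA
Actb: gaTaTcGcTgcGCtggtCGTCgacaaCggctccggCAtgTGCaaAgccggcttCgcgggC
Actg1: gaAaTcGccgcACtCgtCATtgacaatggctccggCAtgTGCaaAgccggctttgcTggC
Relative to Actc1, the stretch differs at 9 places in Acta1, 11 in Actg2, 13 in Acta2, 17 in Actg1 and 19 in Actb. It covers coding bases 16 to 75 in Actc1, Acta1 and Acta2.

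**Figure D1:**
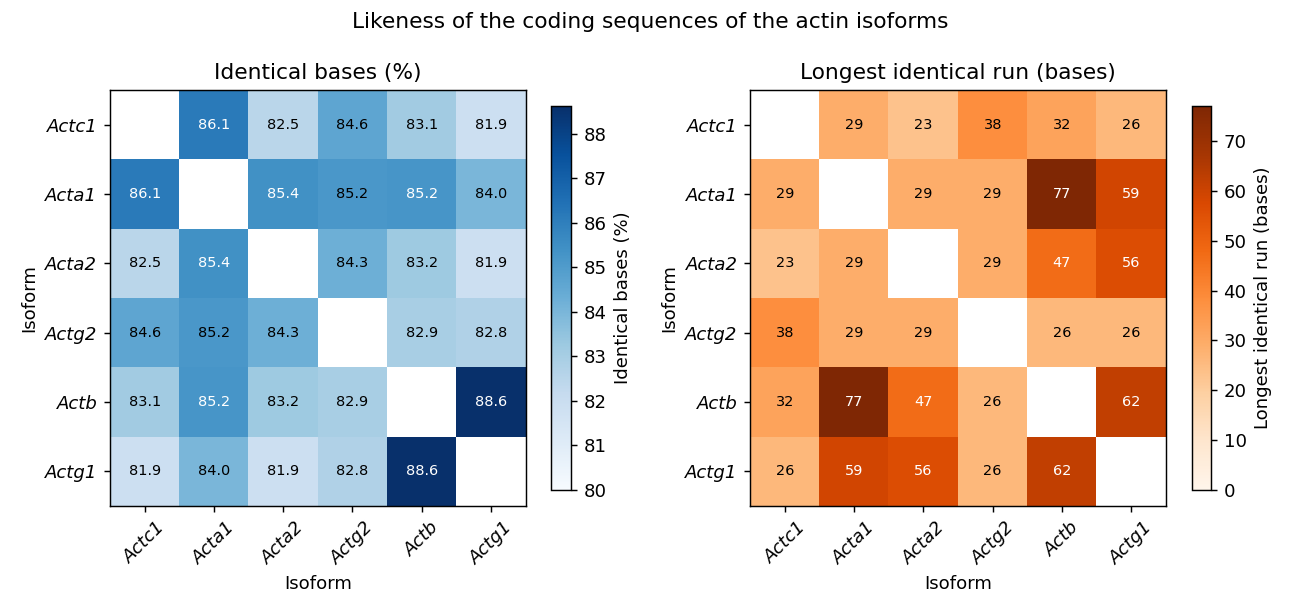
Likeness of the coding sequences of the 6 actin isoforms, one row and column per isoform. The left panel gives the percentage of identical bases over 1125 aligned bases and the right panel the longest run of identical bases; Actb and Actg1 were the most alike at 88.6%, and the longest run was 77 bases, between Acta1 and Actb.

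Exact sharing over windows of 50 or 100 bases was rare between the isoforms. Stretches that differ at a few places were not counted, such as 60 coding bases in which Actg2 differs from Actc1 at 2. Of the windows of 50 bases in each transcript, 0 of 1424 in Actc1 and 0 of 1284 in Actg2 occurred in another isoform. The share was 2.00% in Acta1, 0.352% in Acta2, 2.57% in Actb and 1.94% in Actg1, and for windows of 100 bases it was 0% in all 6. The longest identical run between any pair of coding sequences was 77 bases, between Acta1 and Actb, so a shorter read from within it cannot be placed by its letters alone.

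Copies outside the family touched the cytoplasmic isoforms most. Of the 50-base windows of Actg1, 56.7% occurred in the transcript of another gene, and 51.1% of its 100-base windows did. For Actb the shares were 14.2% and 1.10%, for Acta1 2.22% and 0%, for Acta2 0.352% and 0%, and for Actc1 and Actg2 0% at both lengths. The 22 non-member genes involved included 15 pseudogenes, among them Actg-ps1. Only Lrrc58, a protein-coding gene, had a row in the count table, at 605, 755 and 772 counts in sham 1, 2 and 3. The sources used here state neither the read length nor the treatment of reads that map to several places, so the Actb and above all the Actg1 levels are uncertain, and the part of such reads in them was not tested.

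Actc1 led the actins by a wide margin. Its level was 15151 CPM in sham 1, 16162 CPM in sham 2 and 13724 CPM in sham 3, and its mean of 15012 ± 1225 CPM (SD, n = 3) made it the third highest row of the table. The hearts were close, with sham 2 highest and 1.18-fold above sham 3. All 6 actin rows together took 1.66%, 1.71% and 1.55% of the counts in sham 1, 2 and 3.

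Acta1, the skeletal isoform, came next and differed between hearts. It stood at 615 CPM in sham 1, 293 CPM in sham 2 and 826 CPM in sham 3, from 6442, 3068 and 10469 counts. Sham 3 was 2.82-fold above sham 2, and sham 1 was 2.10-fold above sham 2. Counting error does not cover this gap, since the 95% Poisson intervals were 600 to 630, 283 to 303 and 811 to 842 CPM. The mean was 578 ± 269 CPM (SD, n = 3).

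The cytoplasmic isoforms were lower in sham 2 than in the other hearts. Actb, the beta isoform, was at 500.3 CPM in sham 1, 318 CPM in sham 2 and 539 CPM in sham 3, a mean of 452 ± 118 CPM (SD, n = 3). Actg1, the gamma isoform, was at 232 CPM in sham 1, 157 CPM in sham 2 and 208 CPM in sham 3, a mean of 199 ± 38.5 CPM. Actb was highest in sham 3 and Actg1 in sham 1. The ratio of Actb to Actg1 counts was 2.15, 2.02 and 2.59 in sham 1, 2 and 3. Of the 50-base windows, 56.7% in Actg1 and 14.2% in Actb occur in other genes. The part of such shared reads in the ratio was not tested.

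The smooth muscle isoforms were both highest in sham 3. Acta2, the vascular isoform, was at 135 CPM in sham 1, 121 CPM in sham 2 and 210.3 CPM in sham 3, a mean of 155 ± 48.2 CPM (SD, n = 3). Sham 1 and sham 2 lay close for Acta2, and their Poisson intervals of 128 to 142 and 114 to 127 CPM nearly met. Actg2, the enteric isoform, was near the detection limit, with 14, 3 and 52 counts or 1.34, 0.286 and 4.10 CPM. Its sham 3 level was 14.3-fold that of sham 2, with a 95% counting interval of 4.64 to 71.7. The Actg2 mean of 1.91 CPM fell to 0.811 CPM without sham 3.

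Between genes, levels were compared per kilobase of transcript. On that scale Actc1 had 10192 ± 831 CPM per kb, Acta1 399.7 ± 186, Actb 236 ± 61.5, Actg1 102 ± 19.7, Acta2 76.3 ± 23.7 and Actg2 1.43 ± 1.48 (SD, n = 3 each). This order was the same in all 3 hearts, but reads shared with other genes make the places of Actb and above all Actg1 uncertain. Across hearts, the ranges of CPM per kb overlapped for the neighbours Acta1 (203 to 571) and Actb (166 to 281), and for Actg1 (80.4 to 119) and Acta2 (59.3 to 103). The lowest Actb value lay above the highest Actg1 value, Actc1 lay above Acta1 in each heart, and Actg2 lay below Acta2 in each heart.

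**Figure D2:**
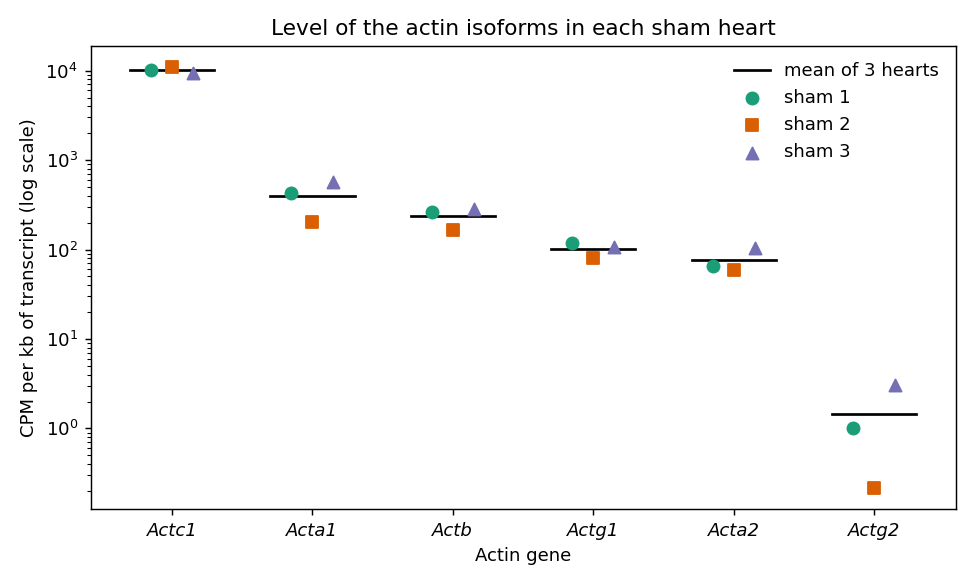
Level of each actin isoform in CPM per kb of transcript on a log axis. Each point is 1 sham heart and each bar the mean of the 3; Actc1 lies near 10192, Acta1, Actb, Actg1 and Acta2 lie between 59.3 and 571, and Actg2 has a mean of 1.43.

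As a share of the actin counts, cardiac actin held 91.1% in sham 1, 94.8% in sham 2 and 88.5% in sham 3, a mean of 91.4% ± 3.17 (SD, n = 3). Skeletal actin held 3.70%, 1.72% and 5.33% in sham 1, 2 and 3, a mean of 3.58% ± 1.81. Cytoplasmic actin held 4.40%, 2.78% and 4.82%, a mean of 4.00% ± 1.08. Smooth muscle actin held 0.819%, 0.709% and 1.38%, a mean of 0.970% ± 0.361. Sham 2 had the largest cardiac share and the smallest share of each other class, and sham 3 the reverse. With counts divided by transcript length, the mean shares were 92.5% ± 2.93 cardiac, 3.69% ± 1.87 skeletal, 3.09% ± 0.839 cytoplasmic and 0.715% ± 0.271 smooth muscle. On that scale skeletal actin stood above cytoplasmic actin in sham 1, at 3.81% against 3.40%, and in sham 3, at 5.50% against 3.73%. In sham 2 it stood below, at 1.76% against 2.14%. By counts, skeletal actin was above cytoplasmic actin in sham 3 alone. The cytoplasmic share is uncertain, since Actg1 and Actb share sequence with other genes, and the part of such reads was not tested. The exact binomial 95% intervals of the count shares, which cover counting error only, were narrow, for example 5.23% to 5.43% for skeletal actin in sham 3 and 1.66% to 1.78% in sham 2.

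**Figure D3:**
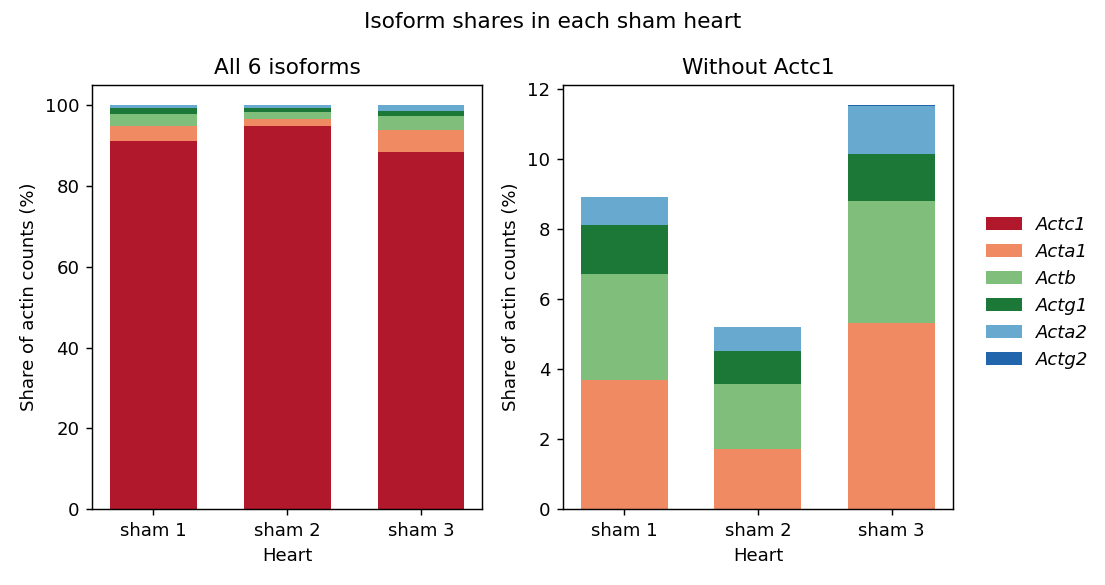
Share of the counts of the 6 actin rows taken by each isoform, in percent, with 1 bar per sham heart. The left panel shows all 6 isoforms and the right panel the 5 isoforms other than Actc1; sham 2 has the largest Actc1 share at 94.8% and sham 3 the smallest at 88.5%.

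Within the sarcomeric pair, Acta1 made up 3.90% of the counts of Acta1 and Actc1 in sham 1, 1.78% in sham 2 and 5.68% in sham 3 (exact 95% intervals 3.81% to 3.99%, 1.72% to 1.84% and 5.57% to 5.79%). These intervals did not overlap. The sum of the pair moved little, at 15765, 16455 and 14550.4 CPM, with a coefficient of variation (CV, the SD as a percentage of the mean) of 6.18%. Because both isoforms count towards 1 total, a higher share of Acta1 is also a lower share of Actc1.

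Among the 5 isoforms other than Actc1, the mix also differed between hearts. Acta1 took 41.4%, 33.0% and 46.2% of these counts in sham 1, 2 and 3, and Actb 33.7%, 35.8% and 30.1%. Actg1 took 15.7%, 17.7% and 11.7%, and Acta2 9.09%, 13.6% and 11.8%. Sham 2 therefore had the lowest Acta1 part and the highest Actb, Actg1 and Acta2 parts.

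The spread between hearts was set beside that of all rows averaging at least 10 CPM, of which there were 8864 with a median CV of 9.32%. The CV was 46.5% for Acta1, 31.1% for Acta2, 26.1% for Actb, 19.3% for Actg1 and 8.16% for Actc1. Acta1 varied more than 97.4% of these rows, Acta2 more than 94.7%, Actb more than 92.1% and Actg1 more than 84.8%, whereas Actc1 varied more than 42.4%. Against rows within 2-fold of its own level, Acta1 varied more than 99.0% of 392 rows, Actb more than 96.1% of 562, Acta2 more than 96.4% of 1781 and Actg1 more than 91.8% of 1374. Actc1 varied more than 83.3% of the 6 rows at its level, whose median CV was 5.24%, and with TMM its CV was 11.9%, beside a median of 9.57% over the 8864 rows, so that its place relative to the median turned round. A CV from 3 hearts is imprecise: without sham 2 it was 20.8% for Acta1, 5.27% for Actb and 7.63% for Actg1, and without sham 3 it was 7.88% for Acta2 and 4.57% for Actc1. Actg2, at a CV of 103%, was below 10 CPM and is not ranked.

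**Figure D4:**
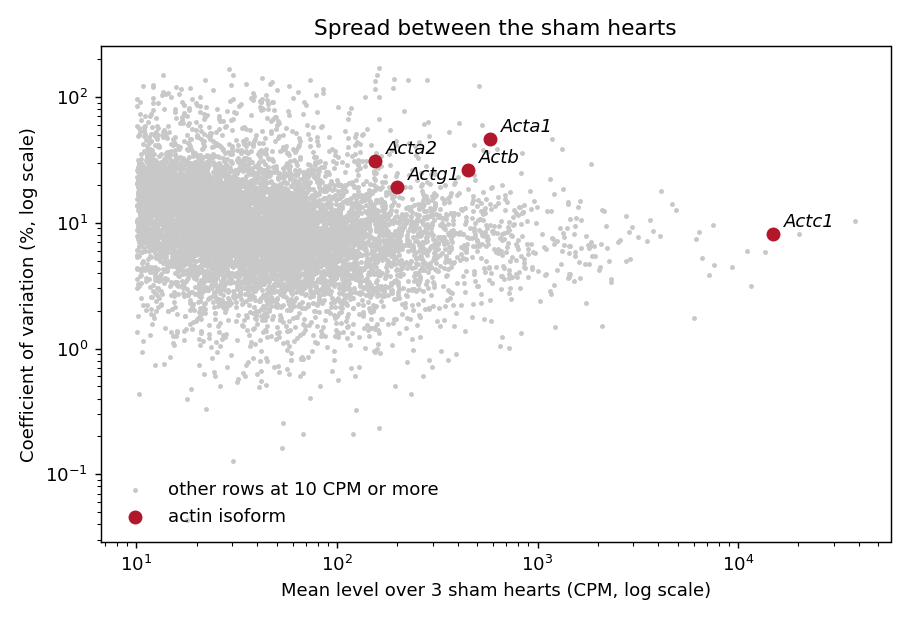
Coefficient of variation between the 3 sham hearts, in percent, against the mean level in CPM, both on log axes, for rows of at least 10 CPM. The 5 named points are actin isoforms; Acta1 at 46.5% stands high among rows of its level, and Actc1 is at 8.16%.

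The direction of the spread was shared by most isoforms. Of the 6, all but Actc1 were lowest in sham 2. Of the 5 at 10 CPM or more, 4 were lowest in sham 2, against 45.6% of all such rows, and 3 (Acta1, Acta2 and Actb) were also highest in sham 3, against 23.5% of all such rows. The share of all rows lowest in sham 2 depended on scaling and was 28.8% with TMM and 27.6% with DESeq2 size factors, and the share highest in sham 3 29.8% and 28.3%, while the order of the hearts was kept for all 6 members. Under TMM and DESeq2 scaling the median log2 ratio of sham 3 to sham 2 over these rows fell by 0.105 and fell by 0.117. On the log2(CPM + 1) scale the ratio of sham 3 to sham 2 was 1.49 for Acta1, 0.80 for Acta2, 0.76 for Actb, 0.41 for Actg1 and -0.24 for Actc1, beside 0.07 for the median row of at least 10 CPM.

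Acta1 was set beside genes of hypertrophy and stretch. Of the 7 listed, 6 were lowest in sham 2, beside 45.6% of all rows of at least 10 CPM. Only 1, the muscle LIM protein Csrp3, was highest in sham 3, as Acta1 was, beside 39.6% of all such rows. Ankrd1, a stretch-responsive nuclear protein, was at 1737, 754 and 1494 CPM in sham 1, 2 and 3. Nppa, the atrial natriuretic peptide, was at 1219, 64.4 and 251 CPM, and Myh7, the slow myosin heavy chain, at 395, 61.0 and 193 CPM. Sham 1 was above sham 3 for these 3 genes, and sham 3 was 1.34-fold above sham 1 for Acta1. Atrial markers differed strongly between the hearts: 8 of 9 were lowest in sham 2, beside the same 45.6%. The list, in which Nppa is counted again, summed to 2704, 128 and 581 CPM in sham 1, 2 and 3. Its defining light chain Myl7 was at 497, 1.43 and 81.5 CPM. The part of atrial tissue in the Acta1 values was not tested. Markers of skeletal muscle were at or near 0: of the 12 other than Acta1, Myh1, Myh2, Myh4 and Myog had 0 counts in each heart, and none of the 12 exceeded 1.89 CPM in any heart. A count of 0 allows up to 0.286 CPM in sham 1 or sham 2 and 0.237 CPM in sham 3.

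Acta2 was set beside the contractile genes of smooth muscle. Of 11 such genes, 9 were highest in sham 3 and 8 lowest in sham 2, as Acta2 was. Of all rows of at least 10 CPM, 39.6% were highest in sham 3 and 45.6% lowest in sham 2. Tagln, an actin-binding protein of smooth muscle, was at 47.8, 16.3 and 85.6 CPM in sham 1, 2 and 3, and Myh11, the smooth muscle myosin heavy chain, at 66.6, 45.7 and 140 CPM. Sham 3 over sham 2 was 5.25-fold for Tagln, 3.06-fold for Myh11 and 3.15-fold for the light chain Myl9, and 1.74-fold for Acta2. Over the list it ran from 0.828-fold for Synpo2 to 39.4-fold for Cnn1, which had 3 counts in sham 2. It was 0.912-fold for Des and 1.27-fold for Smtn, so the list lay on both sides of Acta2. The ratio of Acta2 to Tagln counts was accordingly 2.82, 7.39 and 2.46 in sham 1, 2 and 3. Des (desmin), Synpo2 and Smtn were the highest rows of the list, and none of them was lowest in sham 2. Des, which cardiomyocytes also make, was at 2836, 2868 and 2617 CPM. Of the 6 pericyte markers 5 were highest in sham 3 and 3 lowest in sham 2, with sums of 1396, 1525 and 1568 CPM in sham 1, 2 and 3 and a median CV of 11.9%. Rgs5, the highest of them, was at 711, 726 and 718 CPM and Abcc9, a potassium channel subunit, at 436, 565 and 566 CPM. Fibroblast markers were lowest in sham 2 for 8 of 8 genes, with sums of 3725, 2105 and 4035 CPM in sham 1, 2 and 3, and for the collagen gene Col1a1 172, 50.6 and 266 CPM. In whole heart RNA, fewer cells of a type and less RNA per cell cannot be told apart, and the part of either cell type in the Acta2 values was not tested.

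For Actg2, marker rows of visceral smooth muscle and epithelium were low, as Actg2 itself was. The 6 measured rows other than Actg2 summed to 4.29, 0 and 3.39 CPM in sham 1, 2 and 3, and Epcam was at 0 in each heart. The highest of them, Krt18, was at 2.00, 0 and 2.45 CPM, the same order of hearts as Actg2, from 21, 0 and 31 counts. Krt8, Foxf1 and Cdh1 were highest in sham 1, as their sum with the others was, with 18, 4 and 2 counts there. Hand1 had 1 count, in sham 3. The part of such cells in the Actg2 values was not tested. All 6 were at 0 in sham 2, where Actg2 held 3 counts. The 5 mesothelial markers, genes of the lining of the heart and body cavities, summed to 23.4, 4.68 and 12.0 CPM in sham 1, 2 and 3. Their sum was highest in sham 1, while that of Actg2 was sham 3. Their part in the Actg2 values was not tested.

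Actb and Actg1 were set beside genes that handle cytoplasmic actin. Of 15 genes of monomer binding and filament turnover, 12 were lowest in sham 2. The sequestering peptide Tmsb4x was at 283, 186 and 279 CPM in sham 1, 2 and 3, Tmsb10 at 52.4, 20.5 and 49.0 CPM, and the severing protein Gsn at 2127, 1230 and 2211 CPM. Cfl2, the muscle cofilin, was at 371, 354 and 311 CPM and thus lowest in sham 3. Of 14 crosslinkers and membrane linkers, 13 were lowest in sham 2 and 13 highest in sham 3, beside the 45.6% and 39.6% of all rows, with the muscle filamin Flnc at 622, 540.2 and 636 CPM and the membrane linker Msn at 289, 240.3 and 307 CPM. Of 19 nucleators and elongation factors, 13 were lowest in sham 2, while the cardiac formin Fhod3 was highest there at 545 CPM, with 458 in sham 1 and 411 in sham 3. Endothelial markers were lowest in sham 2 for 6 of 6 genes and leukocyte markers for 6 of the 6 at 1 CPM or more, with endothelial sums of 1263, 1055 and 1392 CPM and leukocyte sums of 346, 252 and 413 CPM in sham 1, 2 and 3. Fibroblast markers, of which Gsn is also one, were lowest in sham 2 for 8 of 8 genes as well, with the sums given for Acta2. The part of these cells in the Actb and Actg1 values was not tested.

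**Figure D5:**
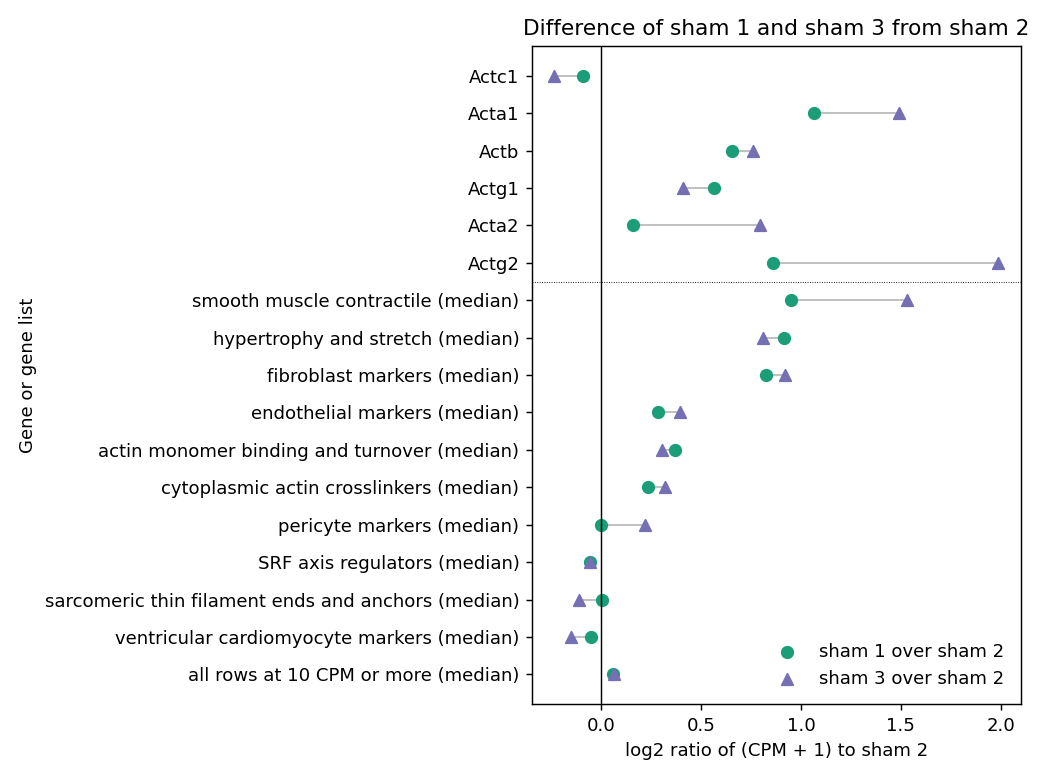
Log2 ratio of CPM + 1 in sham 1 (circles) and sham 3 (triangles) to sham 2, for each actin isoform above the dotted line and as the median of each gene list below it. Acta1 stands at 1.07 and 1.49 and Actc1 at -0.09 and -0.24, and the median of all rows at 10 CPM or more stands at 0.06 and 0.07.

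Actc1 was set beside the other parts of the sarcomere. Its order was sham 2 above sham 1 above sham 3. The troponin Tnnt2 had the same order, at 9526, 9612 and 8851 CPM in sham 1, 2 and 3. The ventricular markers above Tnnt2 in level had other orders. Myh6 was at 34590, 42320 and 37473 CPM, lowest in sham 1, and Myl2 at 11812, 10810 and 10565 CPM, highest in sham 1. Of all rows of at least 10 CPM, 11.3% were highest in sham 2 and lowest in sham 3. With TMM and DESeq2 size factors the share was 21.2% and 22.5%. For the 10 ventricular markers, the median log2(CPM + 1) ratio to sham 2 was -0.05 in sham 1 and -0.15 in sham 3. For all rows of at least 10 CPM it was 0.06 and 0.07. For 11 genes at the ends and anchors of the thin filament it was 0.004 and -0.11. Actn2, the alpha-actinin of the Z-disc, was at 3026, 2983 and 2591 CPM, and the elongation factor Lmod2 at 812, 674 and 587 CPM. The median CV of that list was 7.40%, close to the 8.16% of Actc1.

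Rows with the profile most like each isoform over the 3 hearts were found from the root mean square difference of log2(CPM + 1) centred on each row, among 8859 rows of at least 10 CPM. For Acta1 they were Fibin, Csrp2 and Prg4, with differences of 0.019, 0.025 and 0.031, and 15 rows lay within 0.1. For Acta2 they were Arap1, Cfp and Reck (0.011, 0.013 and 0.026), with 71 rows within 0.1. For Actb they were Lhfp, Matn2 and Bax (0.0069, 0.0082 and 0.011), with 179 rows within 0.1. Fewer rows lay near the isoforms that varied most, which this measure entails where most rows vary little. For Actg1 they included Rnf144a and Denn2b (0.0093 and 0.012), with 545 rows within 0.1, and for Actc1 Slc25a11, Armh4 and Mrpl11 (0.0016, 0.0035 and 0.0038), with 2163 rows within 0.1. For Actg2, whose ratios the added 1 CPM compresses, they were Ddx58, Slfn2 and H2-K1 (0.051, 0.057 and 0.061), with 6 rows within 0.1. With 3 hearts, likeness of profile is a weak description.

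The promoters of Actc1, Acta1, Acta2 and Actg1 were searched for the CArG box, 10 bases with CC, 6 A or T bases and GG. This pattern is the same on both strands, although the letters of a given box need not be. These 4 of 6 genes were found in the RefSeq promoter table (build GRCm38.p6). The 250 bases before each start site are shown, since SRF binds this box. Capitals mark exact boxes and near matches, in which 1 of the 6 central bases is G or C. The regions, all on the minus strand, are chr2:114052876-114053125 for Actc1, chr8:123894776-123895025 for Acta1, chr19:34255374-34255623 for Acta2 and chr11:120348496-120348745 for Actg1.
Actc1: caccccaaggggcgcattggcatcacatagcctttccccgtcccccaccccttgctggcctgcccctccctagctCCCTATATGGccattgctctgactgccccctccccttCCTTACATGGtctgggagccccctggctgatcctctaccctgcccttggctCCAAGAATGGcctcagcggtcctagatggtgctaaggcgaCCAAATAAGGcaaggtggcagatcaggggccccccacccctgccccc
Acta1: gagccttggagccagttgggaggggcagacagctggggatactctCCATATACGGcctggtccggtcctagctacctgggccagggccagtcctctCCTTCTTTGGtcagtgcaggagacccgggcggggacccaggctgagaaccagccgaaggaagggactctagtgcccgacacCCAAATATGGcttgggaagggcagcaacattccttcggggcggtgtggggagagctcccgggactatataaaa
Acta2: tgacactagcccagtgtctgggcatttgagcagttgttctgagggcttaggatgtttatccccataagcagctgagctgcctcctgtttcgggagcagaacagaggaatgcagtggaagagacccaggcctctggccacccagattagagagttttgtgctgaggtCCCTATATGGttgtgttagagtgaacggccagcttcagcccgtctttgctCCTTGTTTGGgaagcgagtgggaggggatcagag
Actg1: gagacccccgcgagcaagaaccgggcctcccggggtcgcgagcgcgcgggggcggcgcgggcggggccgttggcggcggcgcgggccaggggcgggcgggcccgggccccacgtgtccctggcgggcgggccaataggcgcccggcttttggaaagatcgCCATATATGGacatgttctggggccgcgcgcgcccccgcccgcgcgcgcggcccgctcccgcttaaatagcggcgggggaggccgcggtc
Actc1 held 1 exact box, beginning 47 bases before the start site, and 3 near matches at 175, 138 and 87. Acta1 held 1 exact box at 73 and 2 near matches at 205 and 154. Acta2 held 0 exact boxes and 2 near matches, at 84 and 34, and Actg1 held 1 exact box at 90 and 0 near matches. Of all 32851 promoters of this length in the table, 1.47% held an exact box and 8.59% an exact box or a near match. The letters are those of the reference and thus the same for all hearts, so they cannot speak to differences between hearts. A match describes letters and not binding.

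Most regulators of this axis varied little between the hearts. Srf was at 150, 148 and 139 CPM in sham 1, 2 and 3, its coactivator Myocd at 91.3, 106 and 102 CPM, Mrtfa at 12.9, 11.1 and 12.9 CPM and Mrtfb at 39.6, 50.3 and 37.0 CPM. The highest rows of the list were Fhl2, a LIM protein that binds SRF, at 1933 ± 104 CPM, Tead1 at 282 ± 20.1 CPM and Mef2a at 252 ± 11.9 CPM (SD, n = 3 each). Of the 13 measured regulators 3 were lowest in sham 2, beside 45.6% of all rows of at least 10 CPM. Their median CV was 7.12%, beside 9.32% for all such rows and 7.16% for rows within 2-fold of the Acta2 level. The highest CV was 20.6%, in Abra, at 64.6, 60.8 and 42.9 CPM in sham 1, 2 and 3. The part of these regulators in the actin levels was not tested.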

How the data were processed

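Heart RNA of mice was sequenced in 6 libraries, 3 CKD and 3 sham, each referred to as a heart although separate mice are not stated. The authors deposited whole-number raw counts, 1 row per gene symbol and 1 column per library. Trimmomatic, HISAT2, HTSeq and DESeq and the build mm9 are named, with no settings, per the submitters' processing notes. The sources used here state no versions, annotation, strandedness, read length or treatment of multi-mapped reads.

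The CKD columns were left out after the row label check. CPM was computed as count over column total (10474487 to 12669724 in sham) times 1000000, and CPM per kb used the longest principal GENCODE M21 transcript. The precision given by depth is shown as exact Poisson or Clopper-Pearson 95% intervals, for counting error only. No test was made, since 1 group remained. All 6 members and all lists were chosen with earlier results of these data known. From each list the 3 highest genes could be named, and others where a result turned on them, in part after their values were seen (Tagln, Myh11, Myl9, Cnn1, Myh7, Col1a1, Csrp3, Tmsb4x, Tmsb10, Lmod2, Srf, Myocd, Mrtfa, Mrtfb, Abra, Setd3, Naa80 and rows at 0). The profile search found 3 rows per member, of which 1 is not reported here. Alternatives used edgeR 4.0.16 (TMM) and DESeq2 1.42.0 size factors in R 4.3.3, other summaries, and leaving out each heart. Other steps ran in Python 3.11.15 with scipy 1.17.1, and the ratio and profile steps were tested on simulated data.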

Additional observations from a re-analysis of the deposited data

How the results depend on the processing

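No paired analysis was possible because no test was made and the CKD columns could not be compared with the sham columns by row. Of 50 alternatives that keep all 3 hearts (TMM, DESeq2 size factors, totals over rows of at least 10 counts, geometric means, transcript or coding length, summed counts, Actg2 left out), all 50 moved a level, share or ratio by less than 1 SD, or a CV by less than 1.5-fold. The SD between hearts is a wide yardstick, under which a smooth muscle share of 0.715% rather than 0.970% counts as not moved. The TMM factors were 1.02, 0.955 and 1.03 in sham 1, 2 and 3, and such factors can hardly move a mean. The 50 alternatives therefore say little of stability. Division by coding length was chosen after seeing the data. A mean of 3 always stays within 1 SD when a heart is dropped, which says nothing of stability. Dropping a heart changed the CV by over 1.5-fold in 5 of 6 members, with a range of 4.57% to 11.5% for Actc1, 20.8% to 67.4% for Acta1, 7.88% to 38.3% for Acta2, 5.27% to 36.5% for Actb and 7.63% to 27.4% for Actg1. Over these settings the mean was 454 to 720.5 CPM for Acta1 and 0.811 to 2.72 CPM for Actg2, and the cardiac share 89.8% to 92.9%. Depth limits Actg2 alone, which had 3 counts in sham 2.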

Other observations

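Genes that fold and modify actin varied about as little between the sham hearts as other rows of such levels. All 16 listed were measured, and their median CV was 6.16%. It was 7.16% for rows within 2-fold of the Acta2 level and 9.32% for all rows of at least 10 CPM. Of the 16, 11 were lowest in sham 2, as most actins were, beside 45.6% of all such rows. The chaperonin subunits Tcp1, Cct8 and Cct7, which fold newly made actin, were highest, at 225 ± 6.58, 158 ± 7.84 and 157 ± 6.22 CPM (SD, n = 3 each). Setd3, the actin histidine methyltransferase, was at 151, 130.4 and 127 CPM in sham 1, 2 and 3, and Naa80, the acetyltransferase of the actin N-terminus, at 21.9, 21.3 and 21.1 CPM.

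Among other rows of the actin superfamily, 7 of 11 measured averaged at least 1 CPM, with a median CV of 5.85%. The dynactin subunits Actr1a and Actr1b, which form a short actin-like filament, were at 157 ± 9.75 and 127 ± 5.61 CPM, and Actr10, of the same complex, at 54.1 ± 2.42 CPM. Actl9 and Actl10 had 0 counts in each heart, which allows up to 0.286 CPM.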
